A study of Mus musculus with 6 samples.

Results

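The regions described here were runs of several neighbouring introns that stayed together in 1 assembled transcript while another transcript of the same gene spliced each of them out. They were taken from event lists of 6 RNA sequencing libraries made from nucleus accumbens (NAc), which is the ventral part of the striatum and belongs to the reward circuit. Members were chosen by their event class and by the libraries that listed them: a run entered when at least 1 of the 6 libraries listed it and was left out when all 6 did. There were 6782 such runs among 132823 events of 12 classes, and a further 61 runs were listed in all 6 libraries. The 6782 runs lay in 2093 of the 16154 genes with any listed event. The mice were adult male C57BL/6N animals with no genetic change stated, trained in conditioned place preference (CPP), a test in which a compartment is paired with an injection. The morphine group (3 libraries) was injected with morphine and the saline group (3 libraries) with saline, both went through the same training and preference test, and the NAc was taken after the test. Whether a library held the tissue of 1 mouse or of several was stated differently in different places, so the p-values below measure the spread between libraries.

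Splicing normally removes every intron before a messenger RNA leaves the nucleus. A transcript that keeps an intron can be held in the nucleus, or be degraded by nonsense-mediated decay once it is translated, because retained introns often bring in a stop codon. In neurons some retained introns are spliced later, after a stimulus, so that a stored nuclear transcript can become a messenger RNA. In the event lists, a run was called exact when the outer ends of the exons on both sides matched between the retaining and the spliced transcript, and approximate otherwise. An event counted as listed in a library when the list of that library held its retaining form. The spliced form was looked up over all lists together, so the presence of both forms in each library was not checked. A list does not say how much of the RNA was in either form, and a run missing from a list may still have been present in the tissue below the coverage needed for assembly.

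The sequences below show what the introns of such runs look like, for runs in which each intron lay within an exon of an annotated transcript (GENCODE M21, GRCm38) from which it could be read. They were chosen for this reason and after their values were seen, and all are 5′ to 3′ on the strand of the gene. Capitals mark the first and last 2 bases of each intron. Rccd1 and Traf7 held runs that all 3 morphine libraries and no saline library listed. This pattern held for 0.369% of members and for 0.381% of events of all 12 classes. In other events, 2 saline libraries retained both introns of the Rccd1 run, and 2 saline libraries retained 1 intron of the Traf7 run. Each of the 2 genes had 4 other runs in saline libraries. Rccd1 encodes a partner of a histone demethylase, and its run on the minus strand joined the exons around chr7:80320699-80320861 and chr7:80320214-80320301. Traf7 encodes a ubiquitin ligase, and its introns were chr17:24510372-24510455 and chr17:24510076-24510248, also on the minus strand.
Rccd1 intron a: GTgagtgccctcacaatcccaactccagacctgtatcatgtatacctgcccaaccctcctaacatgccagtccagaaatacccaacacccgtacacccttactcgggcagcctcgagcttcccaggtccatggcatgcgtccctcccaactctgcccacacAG
Rccd1 intron b: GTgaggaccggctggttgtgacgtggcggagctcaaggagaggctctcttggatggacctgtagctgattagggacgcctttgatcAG
Traf7 intron a: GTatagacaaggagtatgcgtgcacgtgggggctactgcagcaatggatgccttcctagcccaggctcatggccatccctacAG
Traf7 intron b: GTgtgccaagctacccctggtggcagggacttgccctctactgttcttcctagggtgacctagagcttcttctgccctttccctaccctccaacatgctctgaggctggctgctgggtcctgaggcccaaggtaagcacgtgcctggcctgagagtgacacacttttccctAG
All 4 introns began with GT and ended with AG, the usual ends of a mammalian intron. They were between 84 and 173 bases long, with a GC content of 57.1% to 58.4%.

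A run of 3 introns in Ppox, which encodes the next to last enzyme of haem synthesis, is shown as a run just outside the rule, since all 6 libraries listed it. Its introns lay at chr1:171280256-171280387, chr1:171280002-171280139 and chr1:171279575-171279868 on the minus strand and were 132, 138 and 294 bases long.
Ppox intron a: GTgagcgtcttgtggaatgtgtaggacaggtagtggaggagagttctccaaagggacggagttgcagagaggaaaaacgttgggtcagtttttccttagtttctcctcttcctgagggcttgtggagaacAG
Ppox intron b: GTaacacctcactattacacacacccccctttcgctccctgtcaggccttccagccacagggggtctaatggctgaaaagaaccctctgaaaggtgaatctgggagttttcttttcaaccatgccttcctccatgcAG
Ppox intron c: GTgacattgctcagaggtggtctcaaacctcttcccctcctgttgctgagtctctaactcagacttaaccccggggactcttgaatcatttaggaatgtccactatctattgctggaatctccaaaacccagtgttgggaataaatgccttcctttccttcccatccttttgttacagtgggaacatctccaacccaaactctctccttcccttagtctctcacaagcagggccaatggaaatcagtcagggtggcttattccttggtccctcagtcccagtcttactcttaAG
Each of the 3 again ran from GT to AG. Ccnl1, which encodes a cyclin of nuclear speckles that acts in splicing, gave a member of other composition. The second intron of its run, at chr3:65950227-65950479 on the minus strand, had a GC content of 28.5%, and the first, of 889 bases, had 35.4%.
Ccnl1 intron b: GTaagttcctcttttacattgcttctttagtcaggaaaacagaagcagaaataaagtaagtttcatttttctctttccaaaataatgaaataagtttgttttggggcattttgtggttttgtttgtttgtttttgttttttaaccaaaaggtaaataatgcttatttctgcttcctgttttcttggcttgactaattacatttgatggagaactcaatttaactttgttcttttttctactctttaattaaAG
Saline libraries 1 and 2 and morphine libraries 1 and 2 listed this Ccnl1 run.

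The last sequences are from runs whose introns were not introns of the gene. In 37 members, in 15 genes, every spliced form was listed on the strand opposite to the retaining transcript, and all 37 were approximate. Tro, which encodes the adhesion protein trophinin, held such a run in all 3 morphine libraries and in no saline library. The gene 2010300C02Rik held one in all 3 saline libraries and in no morphine library. Tro had 4 other runs in saline libraries, and 2010300C02Rik had 7 other runs in morphine libraries. In both genes the run lay within a protein-coding exon on the minus strand (Tro, chrX:150647692-150647751 and chrX:150647452-150647631; 2010300C02Rik, chr1:37625168-37625293 and chr1:37624958-37625020).
Tro segment a: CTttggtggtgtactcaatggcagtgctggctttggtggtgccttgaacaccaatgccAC
Tro segment b: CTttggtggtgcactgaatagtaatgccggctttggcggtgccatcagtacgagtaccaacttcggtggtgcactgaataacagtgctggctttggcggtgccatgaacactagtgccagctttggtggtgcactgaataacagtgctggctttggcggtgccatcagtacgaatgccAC
2010300C02Rik segment a: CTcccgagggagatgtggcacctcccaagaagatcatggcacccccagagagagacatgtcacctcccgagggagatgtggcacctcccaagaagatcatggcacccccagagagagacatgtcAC
2010300C02Rik segment b: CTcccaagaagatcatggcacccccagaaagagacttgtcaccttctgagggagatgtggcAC
Read on the strand of the gene, all 4 segments ran from CT to AC, which is GT to AG on the opposite strand. The segments were also made of repeats. Segment b of Tro, of 180 bases, matched itself at 85.0% of bases when shifted by 60 bases, and segment a was 60 bases long. Segment a of 2010300C02Rik, of 126 bases, was 2 identical copies of 63 bases, and segment b was 63 bases long. Over the 37 members, 68 of 81 such segments (84.0%) had a length that was a multiple of 3, with a median of 63 bases. In the other 6745 members this was 5500 of 16256 introns (33.8%), with a median of 650.5 bases. These 37 members are kept in the counts below and made up 0.546% of them. Without events of this kind, an alternative added after seeing the data, morphine had 29.5% more runs than saline, as with them, and 33 in place of 35 runs were in all libraries of 1 group only.

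Every library held runs, and their number differed more between libraries of a group than between the groups. The saline libraries 1, 2 and 3 listed 1847, 1136 and 1079 members, and the morphine libraries 1, 2 and 3 listed 2294, 1582 and 1384. The groups overlapped, since saline library 1 lay above morphine libraries 2 and 3. The mean was 1354 ± 428 in the saline group and 1753 ± 479 in the morphine group (SD, n = 3), 29.5% higher in morphine, a difference within the spread between libraries (p = 0.4 in a two-sided exact permutation test, adjusted p = 0.833 over 5 comparisons). With 3 against 3 libraries no p under 0.1 was possible. Without saline library 1 the difference was 58.3% and without morphine library 1 it was 9.53%. The number of genes with a run was 948, 638 and 623 in the saline libraries and 1106, 785 and 726 in the morphine libraries, which also overlapped (exact permutation test, p = 0.5, adjusted p = 0.833). The relative depth was estimated from 91 read count and FPKM values of differential transcripts, without an error, and is known only up to a factor. It was 1, 1.07 and 1.37 in the saline libraries and 1.20, 1.59 and 1.29 in the morphine libraries. By this estimate, saline library 1 had the lowest depth and the most runs of its group. Across the 6 libraries the number of runs and the depth had a Pearson's r of -0.173 (permutation p = 0.75, adjusted p = 0.933 over 4 relations) and a Spearman's rho of -0.314 (permutation p = 0.564, adjusted p = 0.752), and r was -0.134 when the 2 libraries of most extreme depth were left out.

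**Figure D1:**
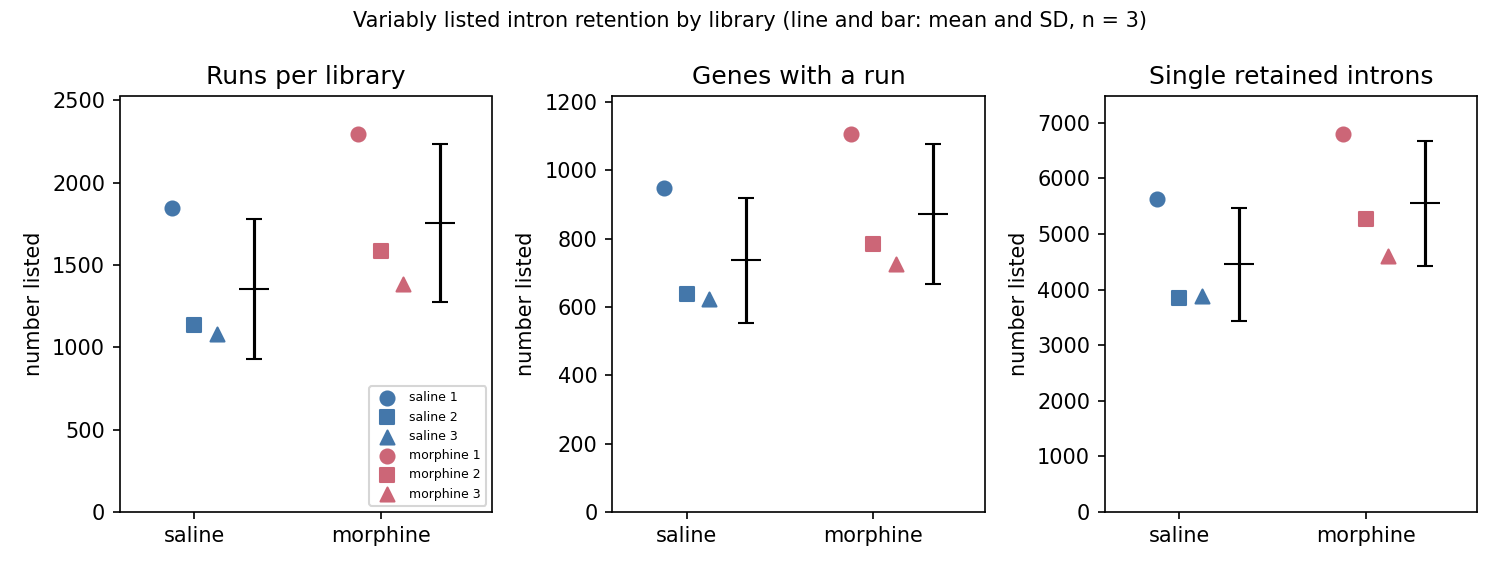
Number of runs, of genes with a run and of single retained introns in each library (y axes, number listed), for saline in blue and morphine in red, with the mean and SD of each group (n = 3) in black. Library 1 of each group holds the most in all 3 panels (1847 and 2294 runs), and the groups overlap.

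The libraries with many runs were those with many single retained introns, meaning retention events of 1 intron. Those not listed in all 6 libraries numbered 5632, 3853 and 3884 in the saline libraries and 6794, 5263 and 4602 in the morphine libraries. Over the 6 libraries, r between the number of single introns and of runs was 0.995 (permutation p = 0.00556, adjusted p = 0.0222) and rho was 0.943 (permutation p = 0.0167, adjusted p = 0.0667). The correlation stayed at 0.990 without the 2 libraries farthest from the median, and both numbers came from the same lists. Runs took 23.3%, 20.9% and 19.9% of all retention events in the saline libraries and 24.1%, 21.7% and 21.5% in the morphine libraries. These shares overlapped between groups (exact permutation test, p = 0.5, adjusted p = 0.833).

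Most runs were short. Of the 6782 members, 4813 (71.0%) held 2 introns, 1404 (20.7%) held 3 and 394 (5.81%) held 4, while 171 (2.52%) held 5 or more. The median was 2 introns in each of the 6 libraries (exact permutation test, p = 1, adjusted p = 1). Runs of 3 or more introns made up 29.4%, 24.9% and 20.7% of the runs in the saline libraries and 26.2%, 25.2% and 26.4% in the morphine libraries. From the last base of the exon before a run to the first base of the exon after it, a run spanned a median of 2203 bases, from 134 to 42584. The median length per library was 2159, 2257.5 and 1829 bases in saline and 2191, 2128 and 2242.5 bases in morphine, again without a difference beyond the spread (exact permutation test, p = 0.7, adjusted p = 0.875).

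The run with the most introns was in Agbl5, which encodes a deglutamylase of tubulin. It held 10 introns of between 99 and 589 bases, at chr5:30890380-30895766 on the plus strand, and only saline library 1 listed it. The 9-intron and 8-intron runs were approximate forms of the same stretch of Agbl5 in the same library. A pair of introns near the other end of the gene behaved differently, as the run at chr5:30904815-30905631 was listed in every library except saline library 1. Setd5, which encodes a SET-domain chromatin regulator, and Kansl1l, a relative of a subunit of a histone acetyltransferase complex, each held an exact run of 8 introns, in morphine library 1 and in saline library 2. The longest run spanned 42584 bases and 5 introns of Ube3a, the ubiquitin ligase gene of Angelman syndrome, in morphine library 2 (chr7:59243469-59286054, plus strand). The longest runs were thus each listed in 1 library.

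Runs were mostly listed in few libraries. Of the 6843 runs, including those in all 6 libraries, 5177 (75.7%) were in 1 library, 1014 (14.8%) in 2, 334 (4.88%) in 3, 170 (2.48%) in 4, 87 (1.27%) in 5 and 61 (0.891%) in 6. For single introns, 64.6% were in 1 library and 1.98% in all 6. The border of the rule lay between runs in 5 and in 6 libraries. The 87 runs just inside had a median length of 1797 bases and the 61 just outside of 1800 bases, and 20.7% and 32.8% of them lay whole within an annotated exon. That share was 5.60% for runs in 1 library. Runs of 3 or more introns made up 31.8% of the runs in 1 library and 10.3% of those in 5.

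**Figure D2:**
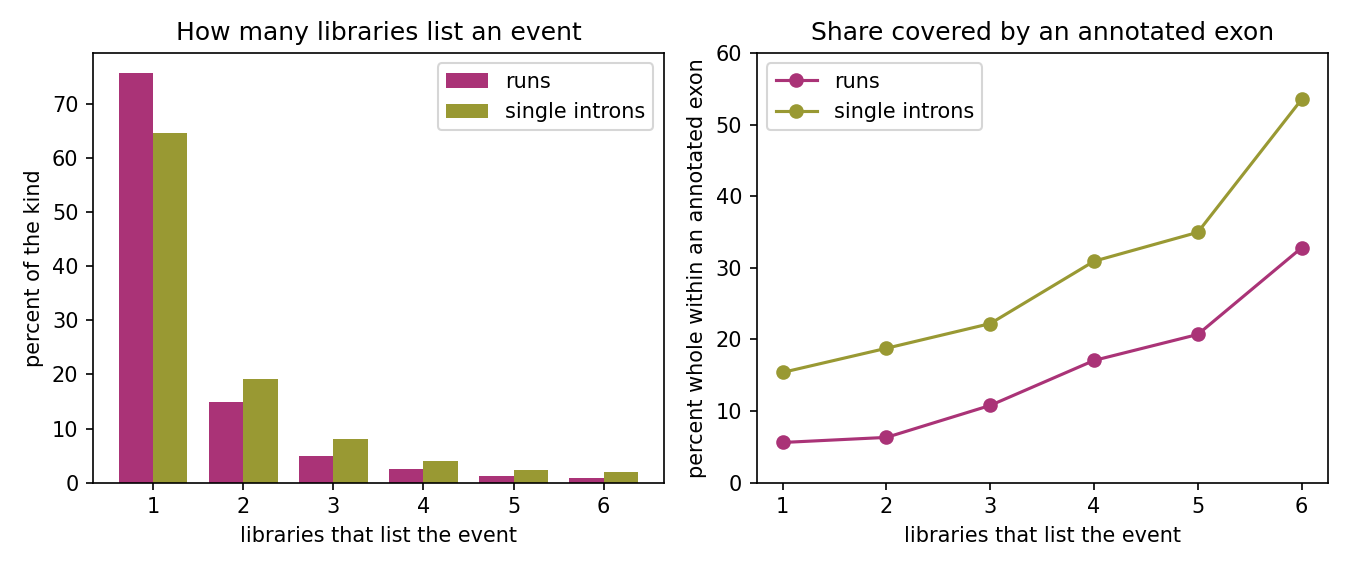
Left, percent of runs and of single retained introns (y axis) by the number of libraries that listed them (x axis). Right, percent of the events in each class that lay whole within an annotated exon. Runs in 1 library made up 75.7% of all runs, and the share within an annotated exon was 5.60% for runs in 1 library and 32.8% for runs in 6.

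A run that 1 library listed did not always stand alone. In 4407 of the 5177 runs in 1 library (85.1%), at least 1 of the introns was also retained in another library, in any retention event. In 2103 (40.6%), all introns of the run were retained in 1 other library, as parts of other events. For single introns in 1 library, where both conditions are the same, the share was 34.6%. A run has more than 1 intron that can meet the first condition, and has to meet the second with all of them. The other class at the same position also counted as another event. The shares of runs and of single introns are therefore not like for like. The members also overlapped each other: 2321 of 5791 distinct positions (40.1%) lay within a longer run of the same gene, and the 6782 members formed 2909 loci of overlapping runs. Of these loci, 1595 (54.8%) were in 1 library and 66 (2.27%) in all 6.

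Introns in runs were shorter than single retained introns in every library. The median intron length in runs was 636, 742.5 and 555 bases in the saline libraries and 663, 696 and 708.5 in the morphine libraries, where an intron counts once for each run that holds it. For single retained introns it was 774, 834 and 689 bases and 796, 786 and 777.5 bases. The mean over libraries was 667 ± 66.0 bases against 776 ± 47.8 (SD, n = 6), a difference of -109 bases with the same direction in 6 of 6 libraries (exact sign-flip permutation test, two-sided, p = 0.03125, adjusted p = 0.0365 over 7 features). This was the smallest p that 6 libraries can give, and the libraries share many introns, so they are not separate samples of introns. Other annotated introns of the genes with a run, which no retention event held, had a mean of the library medians of 1304 ± 42.8 bases, against 672 ± 62.6 for the distinct introns in runs (exact permutation test, p = 0.03125, adjusted p = 0.0365). Introns of 150 bases or less made up 19.2% of the introns in runs and 17.1% of the single ones (exact permutation test, n = 6, p = 0.03125, adjusted p = 0.0365).

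**Figure D3:**
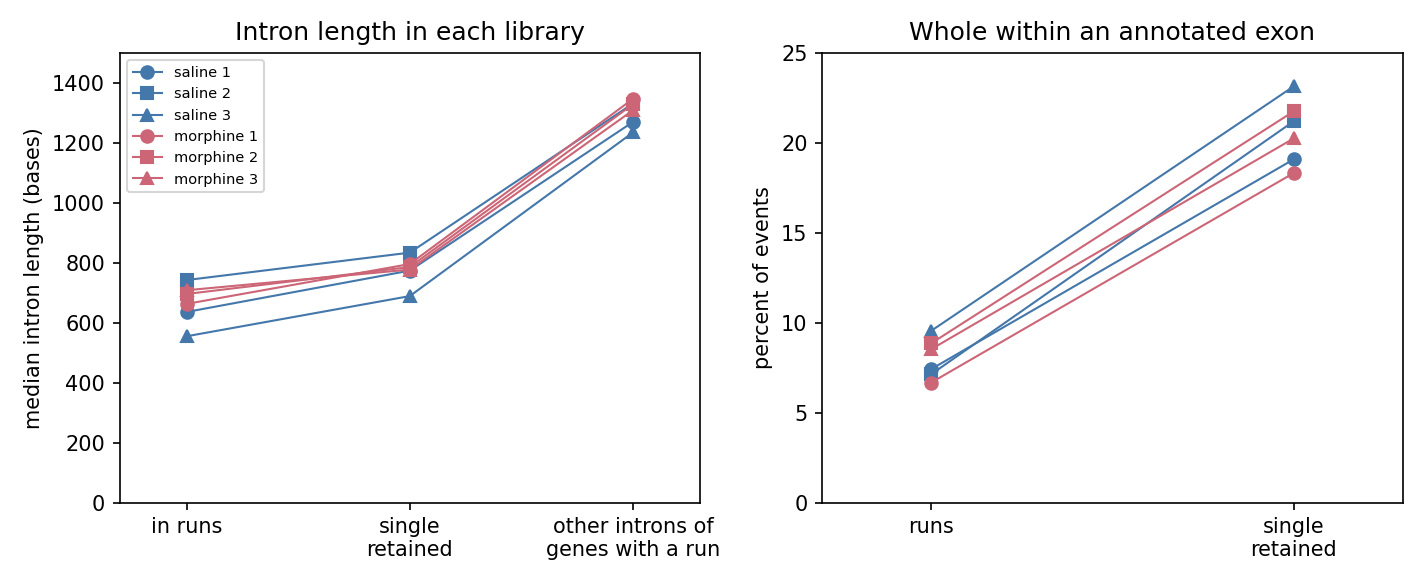
Left, median intron length (bases) of introns in runs, of single retained introns and of other annotated introns of genes with a run, with 1 line per library. Right, percent of runs and of single retained introns that lay whole within an annotated exon. In each of the 6 libraries introns in runs were the shortest of the 3 kinds, and runs had the lower share (means 8.02% and 20.6%).

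Host genes and positions also differed between runs and single introns, by smaller amounts. Genes with a run had a median of 14.9 introns, as the mean of the 6 library medians, and genes with single retained introns alone had 13 (exact permutation test, n = 6, p = 0.03125, adjusted p = 0.0365). For this and for GC content, genes with single retained introns alone were taken only if they had several introns. The libraries share many genes and introns, so these p-values measure agreement between libraries and not between separate sets of genes. The median position in the gene, from 0 at the start to 1 at the end, was 0.624 for runs and 0.644 for single introns, lower for runs in 6 of 6 libraries (exact permutation test, p = 0.03125, adjusted p = 0.0365). The position was that of the midpoint of the event, and a longer event cannot have its midpoint as near to an end of the gene. Runs had a median length of 2203 bases and single introns of 754, and the part of this in the difference was not tested. Per library, 8.02% ± 1.12 of runs and 20.6% ± 1.78 of single introns lay whole within an annotated exon (SD; exact permutation test, n = 6, p = 0.03125, adjusted p = 0.0365), where a run needs all its introns covered. The GC content of the longest transcript of the host gene was 50.0% and 50.8%, lower for runs in 5 of 6 libraries (exact permutation test, n = 6, p = 0.0625, adjusted p = 0.0625). Of the 8468 distinct introns in members, 7950 (93.9%) had both ends at an annotated intron.

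The question of which runs separated the groups was addressed by the runs that every library of 1 group listed and no library of the other did. There were 25 such members in morphine (0.369% of members) and 10 in saline (0.147%). Among events of all 12 classes the share was 0.381% for morphine and 0.277% for saline, so the members were near the background for morphine and under it for saline. Those events include ones listed in all 6 libraries, which the members do not. For single retained introns not in all 6 libraries the shares were 0.561% and 0.215%, above those of the members in both groups. Of the 334 runs listed in exactly 3 libraries, 35 (10.5%) had this pattern, against 10.5% of all events in exactly 3 libraries. Read over genes, 24 genes held a run in all 3 morphine libraries and no saline library (1.15% of 2093 genes) and 6 the reverse (0.287%). For genes with a single retained intron the shares were 1.14% and 0.414%. The share of runs that separated the groups was thus not above that of other events.

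Of the 25 runs in morphine libraries only, Safb had the most introns. Safb encodes a nuclear matrix protein that binds RNA, and the run of 4 introns lay at chr17:56594041-56599623 on the plus strand. A run of 3 introns within it, at chr17:56595714-56599623, was listed in saline libraries 1, 2 and 3 and in morphine library 3. All 4 introns of the Safb run were also retained in a saline library in other events. Glt8d1, a glycosyltransferase gene (chr14:31010165-31011121), and Taz, here the tafazzin gene of cardiolipin remodelling (chrX:74288219-74289105), held runs of 3 introns each. Runs of 2 introns in Braf, the kinase of the MAP kinase pathway, Baz2a, a chromatin remodeller of ribosomal DNA, Cln3, a lysosomal membrane protein, Adamts10, a secreted protease, and Cc2d2a, a protein of the primary cilium, completed the named ones. In saline libraries only, all 10 runs held 2 introns. They included Akap8 (chr17:32315784-32317067, minus strand), a nuclear anchor of protein kinase A, Phka2, a subunit of phosphorylase kinase, and Ankrd24, besides Dennd6a, Fam149b, Tm6sf1, 4931406P16Rik and 2010300C02Rik.

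Most of these runs shared introns with events of the other group. In 3 of the 35, the other class of run was listed at the same position in the other group. The position of the exact Ankrd24 run (chr10:81640135-81640892), in saline only, was listed as an approximate run in morphine library 2, and the same held for Eif2s3y and Gpatch8, both named after their values were seen, in morphine only. In 23 of the 25 runs listed in morphine only, at least 1 of the introns was retained in a saline library in another event, and in 12 all of them were retained in the same saline library. In the 10 runs in saline only these counts were 10 and 8. The 2 runs without any of their introns retained in the other group were in Cc2d2a and in Cope, which encodes a subunit of the COPI coat and was named after its values were seen. The Cope run (chr8:70304696-70306499, plus strand) had introns of 938 and 763 bases, both from GT to AG, and its gene held no other run in saline libraries.

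Among the genes with runs in 1 group only, Rtl1 held the most, and the genes of this paragraph were named after their values were seen. The lists gave 14 runs under the identifier of Rtl1, an imprinted retrotransposon-derived gene, with 7, 6 and 3 in morphine libraries 1, 2 and 3 and none in saline libraries. All 14 were on the plus strand, from chr12:109603835 to chr12:109645847, while Rtl1 itself is annotated on the minus strand at chr12:109589193-109600330. On the plus strand this stretch is annotated as Rian, a maternally expressed host RNA of small nucleolar RNAs (snoRNAs), and 9 of the 14 distinct introns were those of a gene annotated there. Gga3, an adaptor of vesicle transport, held 8, 3 and 1 runs in the morphine libraries. Taf15, an RNA-binding protein, held 2, 3 and 2. In saline libraries only, Angel2 held 3, 2 and 1 runs, and Mettl3, the catalytic subunit of the m6A methyltransferase, held 1 in each. These numbers describe genes picked by this pattern, and no test was made on them. The pattern held for 1.15% (morphine only) and 0.287% (saline only) of genes with a run. For genes with a single retained intron it held for 1.14% and 0.414%. A gene without a run in a group could still retain introns there in other events. In saline libraries this held for 2 of the 3 introns of the Taz run and 0 of the 2 of the Cope run. It was not examined for the genes of this paragraph.

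Runs were unevenly spread over genes. Of the 2093 genes, 927 (44.3%) held 1 member, while 125 (5.97%) held 10 or more and together had 1983 members (29.2%). The 10 genes with the most runs had 398 (5.87%). Pkd1, which encodes polycystin-1, held 100 runs, with 22, 13 and 8 in the saline libraries and 65, 33 and 7 in the morphine libraries. The groups overlapped, as morphine library 3 had the lowest number of all, and the means were 14.3 ± 7.09 and 35.0 ± 29.1 (SD, n = 3; exact permutation test, p = 0.4, adjusted p = 1 over 10 genes). Of the 100 Pkd1 runs, 71 were in 1 library and 42 of these were in morphine library 1. They held 46 distinct introns, 38 of them annotated, between 14.4 and 44.8 kb from the start of the gene. An intron of 490 bases at 19.0 kb was in the most runs (16). The Pkd1 run in the most libraries was at chr17:24570104-24571521, with 3 introns of 1075, 90 and 100 bases, and saline library 3 alone did not list it. Only the intron of 1075 bases is annotated. Those of 90 and 100 bases lay within 1 annotated intron of 209 bases.

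**Figure D4:**
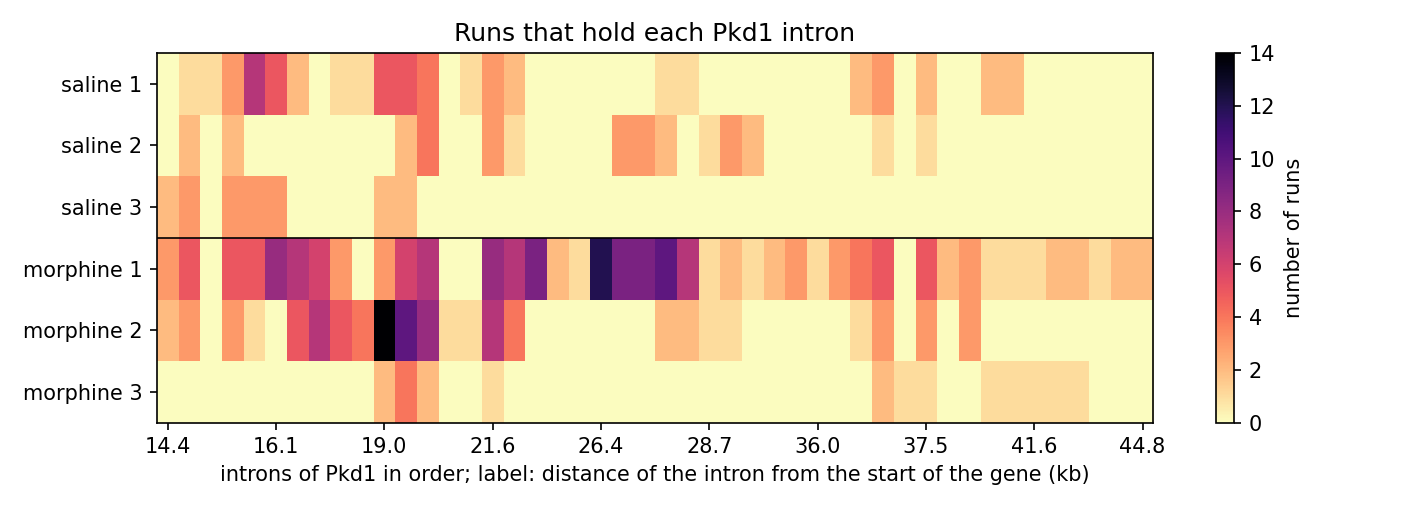
Number of runs (colour) that held each of the 46 introns of Pkd1 (x axis, in order, labelled with the distance from the start of the gene in kb) in each library (y axis). Runs in morphine library 1 extend over most of these introns, the highest count is in morphine library 2 at 19.0 kb (14 runs), and morphine library 3 and saline library 3 hold few.

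The other genes with many runs overlapped between groups as well, each with an adjusted p of 1 in the exact permutation test over 10 genes (n = 3). Kmt2e, which encodes a reader of histone methylation, held 50 runs, with 15, 27 and 4 in saline and 8, 2 and 13 in morphine. Tnrc6a, which encodes the GW182 protein of microRNA silencing, held 41, with 9, 2 and 9 in saline and 6, 21 and 8 in morphine. Setd5 held 39, with 0, 10 and 1 in saline and 11, 17 and 5 in morphine, and Kansl1l held 32. In R3hdm1, morphine library 3 alone held 21 of the listings, against 0 and 2 in the other two morphine libraries. Ankrd24 (30 runs), Ccnl1 (28), Eif2s3y (27), a subunit gene of a translation initiation factor on the Y chromosome, and Eml5 (26), a microtubule-binding protein, completed the 10. Runs of 1 gene share introns and are not independent of each other.

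Runs in 5 libraries were in genes of several functions. Those with the most introns were in Ccdc84, a component linked to the minor spliceosome (chr9:44410780-44413471, 4 introns), and Entr1, an endosome protein (chr2:26384821-26386904, 4 introns). Runs of 3 introns were in Srsf1, the SR protein that promotes splicing, Tia1, an RNA-binding protein of stress granules, Thoc1, a subunit of the THO complex of RNA export, Timm21, a mitochondrial import subunit, Cables2 and Rrp1b. For Srsf1, Tia1 and Thoc1 the missing library was morphine 1, saline 2 and saline 2. A run of 2 introns in 4933427D14Rik completed them. Outside the rule, runs of 3 introns in Ppox, Dus3l, Exd2, Hdhd5 and Pmm2 were in all 6 libraries.

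Genes whose products act on RNA often held a run. Of 57 splicing factors and nuclear speckle proteins, 29 (50.9%) did, against 13.0% of all genes in the lists. The genes of this list had a median of 12 introns and all genes of 8. The number of listed runs in this group of genes was 29, 30 and 43 in the saline libraries and 34, 23 and 34 in the morphine libraries (exact permutation test, n = 3, p = 0.6). Clk2, a kinase of SR proteins, held a run in every library but morphine 1 (chr3:89168923-89170049), and all of Clk1, Clk2, Clk3 and Clk4 held at least 1 run. Rbm39, a coactivator of splicing, and Nktr, a cyclophilin of nuclear speckles, held 7 and 14 runs. Srrm3, a regulator of neuronal microexons, held its run in the 3 morphine libraries only, though both of its introns were retained in 1 saline library in other events. It was 1 of the 29 genes with a run in this list, and none had the reverse pattern, against 1.15% and 0.287% of all genes with a run.

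Of 19 genes of nonsense-mediated decay and the exon junction complex, 7 (36.8%) held a run. Smg1, the kinase of this pathway, had a run in all libraries but saline 1 (chr7:118156735-118157055, minus strand), with introns of 85 and 124 bases. Runs in Upf1, the central helicase, were each in 2 libraries at most. Upf3b held 4 runs, each in 1 library, with 1 in saline library 1, 2 in morphine library 1 and 1 in morphine library 3. The runs of Smg9 and Casc3 were in saline library 1 and saline library 2. Of 21 genes of nuclear RNA export and surveillance, 5 (23.8%) held a run, led by Thoc1 with 8. Exosc10 and Dis3, both nucleases of the RNA exosome, held 4 and 2, and Nxf1, the main export receptor, held 1.

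**Figure D5:**
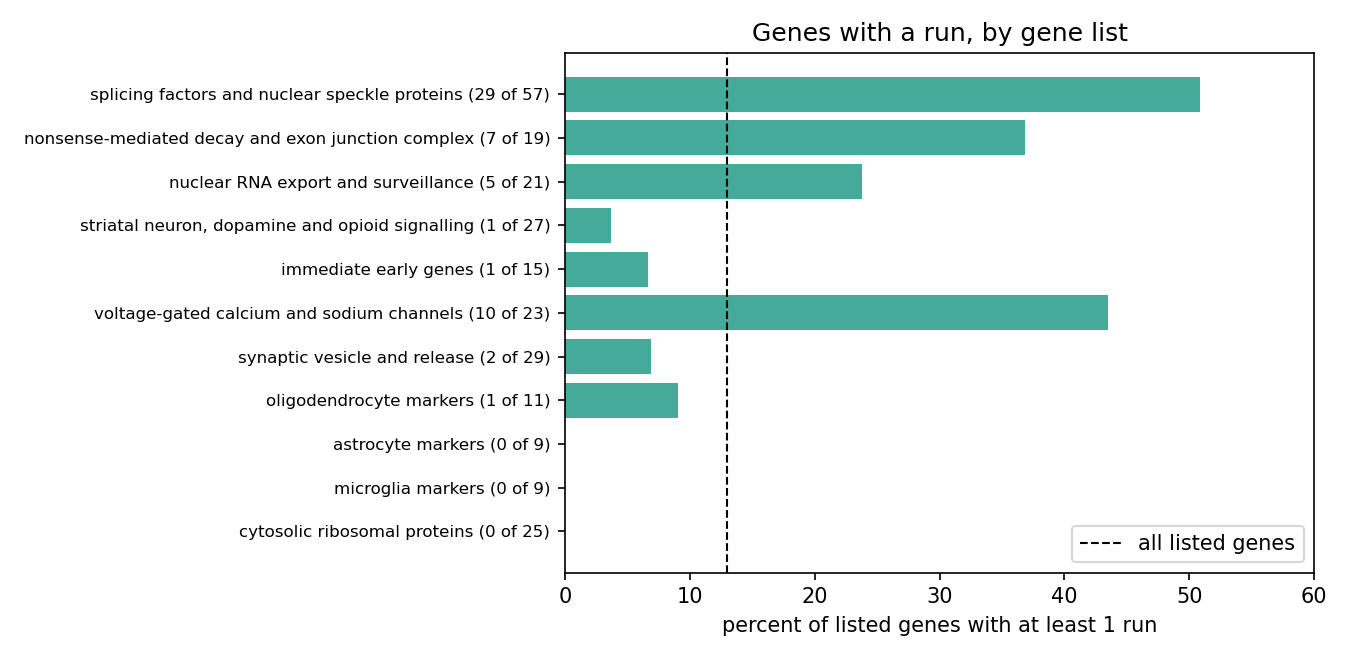
Percent of the genes in each list that held at least 1 run (x axis), with the number of genes with a run and of genes found in the event lists in brackets, and with a dashed line at the value of all listed genes (13.0%). Splicing factors (50.9%) and voltage-gated channels (43.5%) lie above the line, and lists of striatal, vesicle and ribosomal genes below it.

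Among neuronal genes, the voltage-gated calcium and sodium channels stood higher than the others, with a run in 10 of 23 genes (43.5%). These genes are long in introns, with a median of 26. Cacna1b, the N-type channel, held 12 runs, Cacna1e, the R-type channel, 11, Scn3a, a sodium channel, 10, Cacna1d, an L-type channel, 7 and Cacna1a, the P/Q-type channel, 5. The number of listed runs was 17, 12 and 7 in saline and 24, 10 and 9 in morphine (exact permutation test, n = 3, p = 0.8). Of 29 genes of synaptic vesicles and release, 2 (6.90%) held a run, Unc13b, a priming factor, and Syt7, a calcium sensor. Of 27 genes of striatal neurons and of dopamine and opioid signalling, only Rasgrp2, a guanine nucleotide exchange factor of striatal neurons, held one, in morphine library 3. Of 15 immediate early genes in the lists, only Npas4, a transcription factor induced by neuronal activity, did. The Npas4 run of 3 introns (chr19:4987184-4988075, minus strand) was in saline libraries 1 and 3 and morphine library 2.

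Lists of other kinds held few or no runs. Mog, a myelin protein, was the only one of 11 oligodendrocyte genes with a run, in saline library 2, and none of 9 astrocyte genes, 9 microglia genes and 25 cytosolic ribosomal protein genes held one. Of 13 snoRNA host genes only 1 was in the lists, without a run, so this list cannot show whether such hosts held runs. Outside it, 20 host genes had a run that held a snoRNA or scaRNA, as described below. The median number of introns was 2 in the microglia genes, 5 in the ribosomal protein genes and 8 in the astrocyte genes. It was 12 in the synaptic vesicle genes, the same as in the splicing factors, and 19 in the genes of RNA export and surveillance. A link between the number of introns and the share of genes with a run was not tested. Marker genes of medium spiny neurons, oligodendrocytes, astrocytes and microglia had events in all 6 libraries. In tissue of several cell types, fewer cells of a type and less RNA per cell cannot be told apart.

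Some retained introns carried small RNA genes. A microRNA hairpin lay in an intron of 42 runs (0.619%) and of 57 single retained introns (0.299%), or of 0.257% and 0.299% of introns. The Mcm7 run is shown because 1 of its introns holds a cluster of microRNAs that are well known from the cell cycle. Mcm7 encodes a subunit of the replicative helicase. The run had 3 introns (chr5:138165161-138167046, minus strand), was listed in saline library 1 and morphine libraries 2 and 3, and its intron of 748 bases held Mir25, Mir93 and Mir106b. Zranb2, a splicing factor with zinc fingers, held Mir186 in a run in every library but morphine 2. Gga1, an adaptor of vesicle transport, held Mir6955 in a run in the 3 morphine libraries only. Of the 2 introns of this run, 1 was retained in 1 saline library in another event. The mature sequences, from RefSeq on GRCm38.p6, follow with the seed (bases 2 to 8) in capitals.
mmu-miR-106b-5p: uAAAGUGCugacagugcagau
mmu-miR-93-5p: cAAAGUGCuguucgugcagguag
mmu-miR-25-3p: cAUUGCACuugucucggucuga
mmu-miR-186-5p: cAAAGAAUucuccuuuugggcu
mmu-miR-6955-5p: aGGGCCUCaggacucaggagguga
mmu-miR-6955-3p: aCACCUGUcuccuuugcccaca
The sequences of miR-106b and miR-93 share the seed AAAGUGC, and the others each have a seed of their own. The lists hold events of long transcripts, and the level of the mature microRNAs was not measured here.

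A snoRNA or scaRNA lay in 71 runs (1.05%) and in 67 single retained introns (0.351%), or in 0.606% and 0.351% of introns. The hosts included genes of ribosome formation. Gnl3, which encodes nucleostemin, held Snord19, Snord69 and Gm24916, and its runs with Snord19 were in all 6 libraries, with 1, 2 and 1 in saline and 4, 1 and 2 in morphine. Taf1d, a subunit of the RNA polymerase I factor SL1, held Gm24299 in 6 runs, with 0, 2 and 1 in saline and 4, 0 and 3 in morphine. Wdr43 held Snord53 and Gm22858 in the same runs, in every library but saline 3. Ppan, a ribosome assembly factor, held Gm23008 in 4 runs. Runs with AF357425 and 4 other snoRNAs of the Rian stretch, listed under Rtl1, were in morphine libraries only. AF357425 and Gm24899 were in all 3 of these, Gm23474 and Gm24564 in morphine 1 and 2, and Gm23600 in morphine 3 alone. These runs are among the 14 of Rtl1 described above, which was picked by this pattern, so they are no separate observation. The pattern held for 1.15% of genes with a run. Several runs of a gene share the same small RNA, so these counts are of runs and not of separate sites.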

How the data were processed

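Total RNA of the NAc was sequenced by the authors in 6 strand-specific libraries, 3 per group by the treatment label. Replicate numbers follow accession order and are names only. Per the study's methods, reads were mapped with HISAT2 2.0.4 and transcripts assembled with StringTie 1.3.1. The event lists, 1 per library, have the layout of the ASprofile program. Their program, genome build and annotation were not given in the sources used here, and positions (counted from 1) were matched to GENCODE M21 on GRCm38. The score that the authors deposited with each event was 0 or a negative whole number, the lowest -25, had no stated meaning and was not used. In the deposited table of differential transcripts, the authors' read count and FPKM values served only for the relative depth, from 91 values of at least 10 counts. The authors' log2 fold changes and p-values (false discovery rates) in it are their own comparison and were not used. The number of per-sample columns left unused was 0.

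Events with the same class, gene, chromosome, strand, start and end were taken as 1, and the introns of a run were read from its spliced form. Between groups, two-sided exact permutation tests over libraries were used and, for features of runs and single introns, exact sign-flip permutation tests over the 6 libraries, with Benjamini-Hochberg adjustment. The members and gene lists were chosen with earlier results of these data known. Named were up to 8 runs in all libraries of 1 group and none of the other (most introns first), 10 runs in most libraries, the 10 genes with most runs, the 5 runs with most introns, the 3 longest, up to 6 genes per list and 5 runs in all 6 libraries. Of the genes so chosen, 2 are not reported here. The features of host genes, positions, short introns, annotated exons and small RNAs, and the comparison with other annotated introns of the same genes, were added after seeing the data. Scripts (Python 3.11.15, numpy 2.4.6, pandas 2.3.3, scipy 1.17.1, matplotlib 3.10.9) were tested on simulated data. Intron sequences were read from GENCODE M21 transcripts. A planned comparison of intron GC content was void, since a sequence could be read for only 18.0% of the distinct introns. Alternatives were exact runs only, runs in all 6 libraries kept, overlapping runs as 1 locus, no patch sequences, no events on the other strand, genes listed in all 6 libraries, events of 1 library, single introns of genes with a run, runs per 1000 events or listed genes, and each library left out. Added after seeing the data were mean introns per run, no events spliced only on the other strand, exact and approximate runs at the same position as 1 run, and other annotated introns of the same genes.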

Additional observations from a re-analysis of the deposited data

How the results depend on the processing

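The higher number of runs in morphine kept its direction under 15 alternatives, with differences from 22.1% to 29.7% (from 9.53% to 58.3% with a library left out) and exact permutation p between 0.2 and 0.8. The number of genes with a run kept it under 13 (2.60% to 38.4%). The share of runs among retention events, 4.86% higher in morphine relative to saline, turned to -0.333% when overlapping runs counted as 1 locus, and lay between 1.04% and 9.80% with a library left out. Median run length, 5.06% higher in morphine, lay between -0.955% (without saline library 3) and 9.69% with a library left out. Mean introns per run, added after seeing the data, were 0.848% higher in morphine, where the medians were equal, as they were (a difference of 0) with each library left out. The difference in intron length kept its direction under 16 alternatives. Among these, the alternative with other annotated introns of the same genes (-632 bases) replaced the single retained introns by another set. That alternative is a separate comparison. With a library left out the difference between runs and single introns was -117 to -104 bases, with an exact permutation p of 0.0625, the smallest that 5 libraries can give. The 35 runs in all libraries of 1 group and none of the other became 78 to 150 with a library left out, 34 to 130 for morphine and 18 to 75 for saline, since fewer libraries had to list or lack a run, and were 31 to 36 under the other alternatives. The comparison of intron GC content was not run. No paired analysis was possible because the labels give no replicate numbers. An unknown read number per library limits all counts of listed runs.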
